A study of Mus musculus with 24 samples.

Results

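The 10 genes described here include the NF-kB subunits Nfkb1, Nfkb2, Rel, Rela and Relb and the inhibitors Nfkbia, Nfkbie and Nfkbid. The others are Tnfaip3, the gene of A20, and Tnip3, that of an A20-binding protein. All 10 were chosen by name, with earlier results of these data known, and each has a row among the 9420 genes of the deposited expression table. NF-kB is a family of dimeric transcription factors that rests in the cytoplasm bound to inhibitors of the IkB family. Triggering of the T cell receptor and CD28 activates a kinase complex that marks the inhibitors for destruction, and the freed dimers enter the nucleus. Several genes of the system, among them those of its own inhibitors, are classical targets of NF-kB, which makes the pathway a textbook case of negative feedback.

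The cells were mouse Th1 effector cells, CD4+ T cells from DO11.10 mice, a strain that carries a transgenic T cell receptor. They were isolated with CD4 magnetic beads and studied before restimulation and for up to 4 h after it, and every restimulated group received plate-bound goat antibody to hamster immunoglobulin G together with soluble antibodies, anti-CD3 at 1 µg/ml with anti-CD28 at 2.5 µg/ml. The design text gives the aim as following transcription, splicing and translation while effector T cells are activated. Newly made RNA was captured after labelling with 4-thiouridine (4sU RNA, 200 µM for 1 h) at 0, 1, 2, 3 and 4 h, total RNA at 0, 1, 2 and 4 h, and ribosome-protected fragments (footprints) at 0, 0.5, 1, 2 and 4 h. There were 2 libraries each for 4sU RNA at 0, 1 and 4 h, for total RNA at 0 and 4 h and for footprints at 0, 1 and 4 h, and 1 library for each other time. A further 4sU pair with a label of 0.5 h (500 µM) covered 0.5 h and 0 h with 1 library each. All 24 libraries come from bulk cells, so a lower level in fewer cells and a lower level per cell cannot be told apart. Whether replicates are separate animals or cultures is not stated in the labels, and p-values therefore measure the spread between these libraries only.

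Values are FPKM, fragments scaled to gene length and to library size. Depth could be inferred for 6 libraries, at 4.87 M reads for total RNA at 0 h in replicate 2 and at 8.85 to 20.1 M reads for 5 footprint libraries. The 7 markers used for CD4+ Th1 cells, Cd4 and Tbx21 among them, were above 0 in every library. Markers of CD8 T cells were also present and differed between replicates. The summed FPKM of Cd8a, Cd8b1, Gzma and Gzmk was 270 to 354 in replicate 1 and 19.3 to 29.1 in replicate 2 of total RNA, 96.8 to 159 and 15.6 to 23.4 in 4sU RNA, and 822 to 1106 and 85.7 to 116 in footprints. Of 7 markers of dendritic cells and macrophages 3 are in the table (Cd74, H2-Aa and H2-Ab1), with a footprint sum of 112 at 4 h against 308 at 0 h in replicate 1 and of 87.0 at 4 h against 121 at 0 h in replicate 2. In 4sU RNA that sum was 11.0 at 4 h against 26.3 at 0 h, and 12.1 at 4 h against 11.2 at 0 h. H2-Aa was at 0 in 1 library. All libraries at 0.5, 2 and 3 h are replicate 1, and the total RNA library at 1 h is replicate 2, so values at those times were also set against 0 h of the same replicate. The part of these cells in the values below was not tested.

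The stretches in front of the genes were searched for the NF-kB motif, since the family is known to act on its own genes. RefSeq windows of 250 bases before the annotated start (GRCm38.p6) were held for 8 of the 10 genes, with none for Nfkb1 and Relb. Where a gene had several windows, the most upstream one was used. The NF-kB consensus, searched by name as its degenerate motif of 10 bases on both strands and with overlapping matches joined to 1 stretch, was found in 6 of the 8 windows. It was found in 2382 of all 32851 windows of this length, 7.25%. Nfkb2 and Tnfaip3 held 2 stretches each, as did 0.396% of all windows, while Rel, Nfkbia, Nfkbie and Tnip3 held 1. Rela and Nfkbid held none. The 5 windows below show a cytoplasmic inhibitor pair, the subunit with the largest footprint change at 2 h, the late gene Tnip3, and, for contrast, Nfkbid, whose window has no match. Capitals mark the matches, and each sequence runs 5′ to 3′ on the strand of the gene. The windows lie at chr12:55492648-55492897 on the minus strand for Nfkbia, chr17:45555450-45555699 on the plus strand for Nfkbie, chr11:23770970-23771219 on the minus strand for Rel, chr6:65590148-65590397 on the plus strand for Tnip3 and chr7:30421481-30421730 on the plus strand for Nfkbid.
Nfkbia: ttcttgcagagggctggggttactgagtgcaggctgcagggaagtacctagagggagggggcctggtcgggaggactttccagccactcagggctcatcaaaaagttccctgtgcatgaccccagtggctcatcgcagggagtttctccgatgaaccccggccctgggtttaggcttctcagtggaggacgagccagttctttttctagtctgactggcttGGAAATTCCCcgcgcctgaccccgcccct
Nfkbie: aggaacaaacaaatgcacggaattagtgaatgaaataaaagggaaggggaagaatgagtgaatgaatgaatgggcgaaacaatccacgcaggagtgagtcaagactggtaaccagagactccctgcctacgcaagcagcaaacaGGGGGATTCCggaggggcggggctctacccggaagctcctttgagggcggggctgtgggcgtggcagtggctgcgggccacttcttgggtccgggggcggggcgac
Rel: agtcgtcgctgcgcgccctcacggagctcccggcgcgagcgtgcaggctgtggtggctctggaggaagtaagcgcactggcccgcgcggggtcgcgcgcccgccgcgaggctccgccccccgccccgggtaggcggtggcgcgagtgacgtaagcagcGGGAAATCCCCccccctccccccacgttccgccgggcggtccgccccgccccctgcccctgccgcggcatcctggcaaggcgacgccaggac
Tnip3: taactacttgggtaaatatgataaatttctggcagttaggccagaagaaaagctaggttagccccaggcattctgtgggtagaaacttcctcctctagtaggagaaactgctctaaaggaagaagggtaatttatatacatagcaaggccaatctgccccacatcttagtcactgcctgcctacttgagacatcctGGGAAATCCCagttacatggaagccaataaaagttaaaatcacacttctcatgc
Nfkbid: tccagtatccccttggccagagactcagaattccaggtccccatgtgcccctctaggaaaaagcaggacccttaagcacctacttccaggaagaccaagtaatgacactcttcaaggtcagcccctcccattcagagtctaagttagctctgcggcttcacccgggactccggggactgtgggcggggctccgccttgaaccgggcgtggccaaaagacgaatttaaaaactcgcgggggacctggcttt
The match ahead of Nfkbia begins 29 bases before the start, that of Tnip3 54, that of Rel 92 and that of Nfkbie 106. The Tnip3 window belongs to a RefSeq start that lies 65085 bases inside the longest GENCODE M21 gene model. For Nfkb2 and Tnfaip3 the start used lies 417 and 247 bases inside that model. The Nfkb2 window thus lies wholly within the gene, and the Tnfaip3 window almost wholly. A match is a description of the letters and not evidence of binding.

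Restimulation was followed by higher levels of nearly all of these genes, in an order that differed between members. In replicate 1, the replicate with every 4sU and footprint time, the highest 4sU value came at 1 h for Nfkbid, at 2 h for 7 genes (Nfkb2, Rel, Rela, Relb, Nfkbia, Nfkbie and Tnfaip3) and at 3 h for Nfkb1 and Tnip3. In footprints of the same replicate 8 genes were highest at 2 h, while Nfkb1 and Tnip3 were highest at 4 h. By 4 h in replicate 1 the 4sU value of Rel was back to 22.4% of its highest value, that of Nfkbid to 26.8% and that of Nfkbie to 35.7%. Nfkb1 stood at 82.0% and Tnip3 at 78.6%. Replicate 2 has no 4sU library at 2 or 3 h. There Rel had 15.7 FPKM at 4 h against 12.4 at 1 h and Nfkbie 66.5 against 51.4, while Nfkbid had 124 against 307. Nfkbia had 403 at 4 h against 413 at 1 h there, and Tnfaip3 87.1 against 181. That 1 h value of Tnfaip3 was above its 2 h value in replicate 1, 159 FPKM, so its highest time rests on replicate 1 alone.

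**Figure D1:**
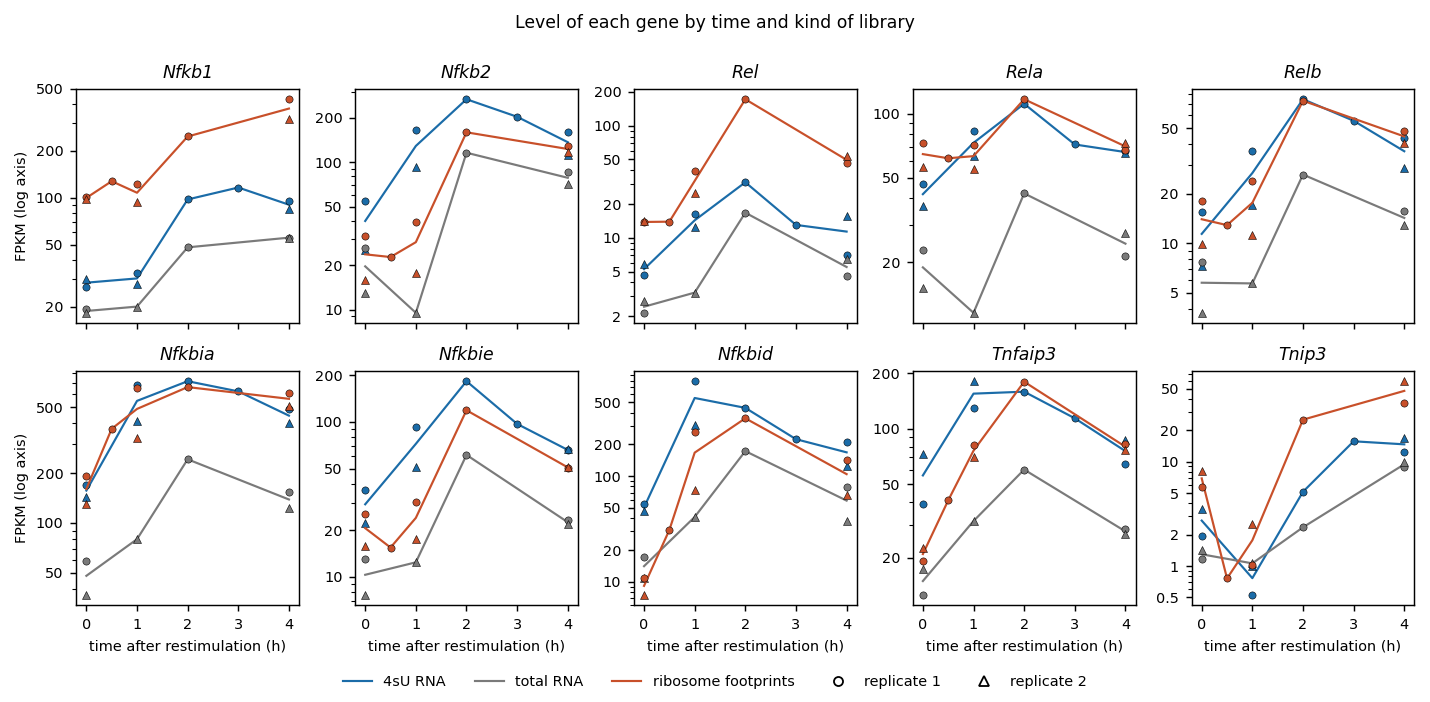
FPKM of each gene (log axis) against time after restimulation in hours, for 4sU RNA, total RNA and footprints; circles are replicate 1, triangles replicate 2, and lines join the means of the libraries at each time (total RNA at 1 h is replicate 2 only, and 0.5, 2 and 3 h are replicate 1 only). In replicate 1 most genes are highest at 2 h, whereas Nfkb1 and Tnip3 are highest at 3 h in 4sU RNA and at 4 h in footprints.

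Changes were tested with limma on log2(FPKM + 1) across all genes, with a gene counted as called where its adjusted p was below 0.05. In 4sU RNA, 0 of the 10 genes were called at 1 h against 0 h, where 0.183% of all genes tested were called higher. At an unadjusted p below 0.05 the number was 9 of the 10, and 1236 of all 9278 genes tested. A further fit took the replicate number as a block, so that libraries of the same number are compared. With the block 8 were called higher and Tnip3 lower, where 5.21% of all genes were called higher and 5.42% lower. At 2 h against 0 h, 8 genes were higher (3.87% of all genes), all but Tnfaip3 and Tnip3. With the block 10 were called (13.3% of all genes), with an adjusted p of 0.00179 for Tnfaip3 and 0.00764 for Tnip3. At 3 h, 6 were higher (9.41% of all genes), namely Nfkb1, Nfkb2, Relb, Nfkbia, Nfkbie and Tnip3, and with the block 10 (17.8% of all genes). At 4 h, 7 were higher (14.4% of all genes), all but Rel, Rela and Tnfaip3, and with the block 10 (23.3% of all genes). Without either of the 0 h libraries the calls of the family at 2 h and 3 h were lost, and so were most calls over all genes. At 4 h the count was 4 without replicate 1 at 0 h, 2 without replicate 2 at 0 h, 3 without replicate 1 at 4 h and 4 without replicate 2 at 4 h, and Nfkb1 and Tnip3 were called in each of these fits. Over the 10 genes the median log2 change in 4sU RNA was 1.27 at 1 h, 2.28 at 2 h, 1.99 at 3 h and 1.56 at 4 h, beside medians of -0.03, -0.13, -0.16 and -0.16 over all genes. The 2 h and 3 h libraries are replicate 1 only, and with the block the medians of the 10 genes there were 2.12 and 1.76. Each fit at 2, 3 or 4 h with 1 library left out also called fewer of all genes, so the smaller counts are not particular to the family. The comparisons with 0 h share the 0 h libraries, so their counts are not independent of each other.

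In total RNA at 1 h against 0 h limma called 0 of the 10 genes and 0% of all genes. An unadjusted p below 0.05 was found for 2 of the 10 and for 1197 of all 9078 genes tested. With the block 3 were called higher, Nfkbid, Tnfaip3 and Nfkbia, where 1.43% of all genes were. At 2 h, 5 were higher (0.958% of all genes), namely Rel, Nfkbia, Nfkbie, Nfkbid and Tnfaip3, and 9 with the block (5.33% of all genes). At 4 h, 6 were higher (6.47% of all genes), namely Nfkb1, Nfkb2, Nfkbia, Nfkbie, Nfkbid and Tnip3, and 9 with the block (16.6% of all genes). The 2 h count was 6 without replicate 1 at 0 h and 0 without replicate 2 at 0 h. The 4 h count was 7 without replicate 1 at 0 h, 3 without replicate 2 at 0 h, 1 without replicate 1 at 4 h and 3 without replicate 2 at 4 h, and Tnip3 was called in each. Each of these fits called fewer of all genes than the full fit. The median change of the 10 genes was 0.19 at 1 h, 2.21 at 2 h and 1.37 at 4 h. Over all genes it was -0.08 at 1 h and -0.10 at 4 h. For the 10 genes it was 2.07 at 2 h with the block, and -0.0025 at 1 h without replicate 2 at 0 h.

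In footprints at 0.5 h against 0 h limma called 0 of the 10 genes and 0% of all genes. An unadjusted p below 0.05 was found for 3 of the 10 and for 743 of all 9312 genes tested. With the block 0 were called (0.0322% of all genes). At 1 h, 1 was higher, Tnfaip3, where 0.14% of all genes were. With the block Nfkbid, Tnfaip3 and Nfkbia were higher (1.42% of all genes) and Tnip3 lower (0.548%). At 2 h, 4 were higher (2.96% of all genes), namely Rel, Nfkbie, Nfkbid and Tnfaip3, and with the block 9 (9.53% of all genes), every gene but Rela. At 4 h, 9 were higher (12.1% of all genes), again every gene but Rela, and the same number with the block (21.3% of all genes). With each library left out in turn the call of Tnfaip3 at 1 h was lost every time, and without replicate 2 at 1 h Nfkbid was called in its place. The calls at 2 h were lost without either 0 h library, and so were most calls over all genes. The 4 h count was 5 without replicate 1 at 0 h, 4 without replicate 2 at 0 h, 4 without replicate 1 at 4 h and 5 without replicate 2 at 4 h, and Nfkb1, Rel, Tnfaip3 and Tnip3 were called in each. These 4 h fits also called fewer of all genes than the full fit. The median change of the 10 genes was 0.01 at 0.5 h, 0.26 at 1 h, 2.44 at 2 h and 1.85 at 4 h. Over all genes it was -0.06, -0.04, -0.07 and -0.10 at these times. With the block the 2 h median of the 10 genes was 2.17. The early medians had no stable sign: that at 0.5 h was -0.11 with the block or without replicate 2 at 0 h, and that at 1 h was -0.03 without replicate 2 at 0 h and -0.14 without replicate 1 at 1 h.

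**Figure D2:**
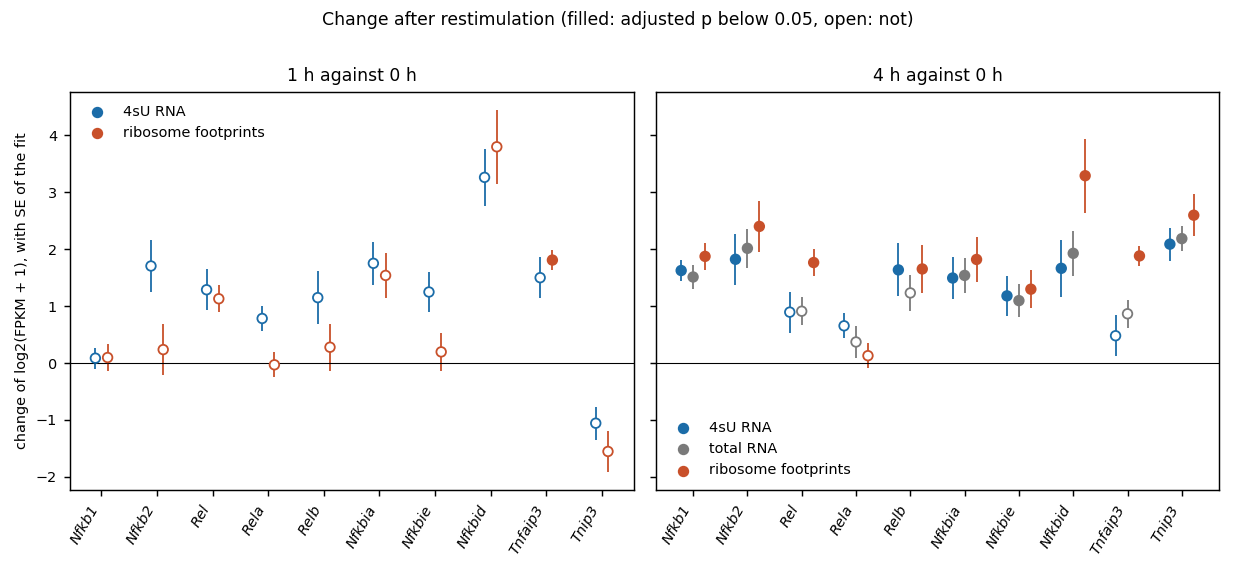
Change of log2(FPKM + 1) of each gene at 1 h (left) and 4 h (right) against 0 h, with the SE of the fit, by kind of library; filled points have an adjusted p below 0.05. Nfkbid has the largest change at 1 h in both kinds of library, Tnip3 lies below 0 at 1 h and above 0 at 4 h, and Rela is near 0 in footprints at both times.

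The subunit genes come first. Nfkb1 (ENSMUSG00000028163, chr3:135584655-135691547 on the minus strand in GRCm38) encodes the precursor of p50, a subunit that binds DNA but has no activation domain of its own. In 4sU RNA it had 27.0 and 30.2 FPKM at 0 h, 33.0 and 27.95 at 1 h, 97.7 at 2 h, 116 at 3 h, and 95.5 and 85.2 at 4 h, where a pair of values is replicate 1 and then replicate 2. The 1 h values overlapped those at 0 h, and every library from 2 h on was above every library at 0 and 1 h. The change at 4 h against 0 h was 1.63 (SE 0.18, adjusted p = 0.00326), and at 4 h against 1 h it was 1.54 (SE 0.18, adjusted p = 0.00658), where 2 of the 10 genes were called higher and 11.9% of all genes. Total RNA gave 19.4 and 18.4 FPKM at 0 h, 20.1 at 1 h, 48.2 at 2 h, and 55.6 and 55.6 at 4 h, and footprints 102 and 98.0 FPKM at 0 h, 128 at 0.5 h, 122 and 93.8 at 1 h, 247 at 2 h, and 428 and 318 at 4 h. The footprint groups at 4 h and 0 h did not overlap, and the 4 h values were the highest of the 8 footprint libraries. Total RNA rose by 1.51 (SE 0.22, adjusted p = 0.0119) at 4 h, with adjusted p between 0.0368 and 0.0852 when 1 library was left out, and footprints rose by 1.87 (SE 0.24, adjusted p = 0.00664) on the log2 scale.

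Nfkb2 (ENSMUSG00000025225, chr19:46304320-46312385, plus strand) encodes the precursor of p52, which in its unprocessed form also retains dimers in the cytoplasm. Its 4sU values were 54.3 and 25.5 FPKM at 0 h, 165 and 93.0 at 1 h, 267 at 2 h, 203 at 3 h, and 161 and 112 at 4 h. Both libraries at 1 h lay above both at 0 h, with ratios of 3.03 and 3.65 within replicates 1 and 2, and the 1 h difference of 1.71 (SE 0.45, adjusted p = 0.233) had an adjusted p of 0.00340 with the block. In total RNA the gene had 26.3 and 13.0 FPKM at 0 h, 9.5 at 1 h, 116 at 2 h, and 85.6 and 71.0 at 4 h. The 1 h library was below both 0 h libraries, and from 2 h all were above them. Footprints gave 31.5 and 15.9 FPKM at 0 h, 22.7 at 0.5 h, 39.5 and 17.8 at 1 h, 159 at 2 h, and 128 and 118 at 4 h, with 1 h and 0 h overlapping and 4 h far above both. The 4 h changes were 1.82 (SE 0.45, adjusted p = 0.0258) in 4sU RNA, 2.02 (SE 0.35, adjusted p = 0.0170) in total RNA and 2.40 (SE 0.45, adjusted p = 0.0170) in footprints. With 1 library left out the adjusted p lay between 0.0333 and 0.132, between 0.0136 and 0.120 and between 0.0351 and 0.0988 in these kinds of library. In footprints at 4 h against 1 h the gene was also higher, by 2.17 (SE 0.45, adjusted p = 0.0334), one of 3 genes called (Nfkb1, Nfkb2 and Tnip3) where 7.65% of all genes were, or of 5 with the block, which adds Relb and Nfkbie (17.5% of all genes). Without replicate 1 at 4 h the calls were lost, and without each other library only Tnip3 was called. Most calls over all genes were lost in these fits too. Exons of Nfkb2 overlap 642 bases of AC114539.1 and 299 bases of Psd on the other strand, and since the strand setting of the counting is not known, reads of these genes cannot be told apart here.

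Rel (ENSMUSG00000020275, chr11:23736847-23770970, minus strand) encodes c-Rel, an activating subunit of lymphocytes that T cells need for full Il2 expression. In 4sU RNA it had 4.66 and 5.84 FPKM at 0 h, 16.2 and 12.4 at 1 h, 31.3 at 2 h, 13.0 at 3 h, and 7.01 and 15.7 at 4 h. All later libraries were above both at 0 h, and the replicates differed at 4 h, where replicate 1 was near its 0 h level. In total RNA Rel had 2.14 and 2.71 FPKM at 0 h, 3.24 at 1 h, 16.7 at 2 h, and 4.54 and 6.43 at 4 h, with a single high library at 2 h. Its footprints were 13.7 and 14.0 FPKM at 0 h, 13.9 at 0.5 h, 39.1 and 25.3 at 1 h, 172 at 2 h, and 46.0 and 53.1 at 4 h. In footprints the 2 h library stood 12.6-fold above 0 h of the same replicate, and at 4 h both libraries were again lower but above both at 0 h. The footprint change was 3.55 (SE 0.30, adjusted p = 0.0151) at 2 h, a call lost without either 0 h library, and 1.77 (SE 0.24, adjusted p = 0.00760) at 4 h. In 4sU RNA the 4 h difference of 0.89 (SE 0.36, adjusted p = 0.101) was not called, nor was that in total RNA, 0.91 (SE 0.24, adjusted p = 0.0533). With the block Rel was called in both, with an adjusted p of 0.0293 in 4sU RNA. At 2 h Rel was higher in 4sU RNA by 2.37 (SE 0.44, adjusted p = 0.0395) and in total RNA by 2.38 (SE 0.30, adjusted p = 0.0281), with 1 library at 2 h in each. The 4sU call was lost without either 0 h library, and the total RNA call without replicate 2 at 0 h.

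Rela (ENSMUSG00000024927, chr19:5637483-5648130, plus strand) encodes p65, the main activating partner of p50. Its 4sU values of 46.9 and 36.8 FPKM at 0 h, 82.9 and 62.9 at 1 h, 111 at 2 h, 71.6 at 3 h, and 66.8 and 65.1 at 4 h were higher than at 0 h in every later library. The difference was 0.65 (SE 0.22, adjusted p = 0.0643) at 4 h, called with the block only (adjusted p = 0.00790). Total RNA gave 22.8 and 15.1 FPKM at 0 h, 11.6 at 1 h, 42.2 at 2 h, and 21.4 and 27.6 at 4 h, with the 1 h library below both at 0 h, and footprints 72.9 and 56.1 FPKM at 0 h, 61.7 at 0.5 h, 71.4 and 54.8 at 1 h, 117 at 2 h, and 67.4 and 72.8 at 4 h. At 1 h and at 4 h the footprint libraries overlapped those at 0 h, and the 2 h library alone was above them. Rela was the only gene of the 10 that no footprint comparison called, with or without the block.

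Relb (ENSMUSG00000002983, chr7:19606217-19629438, minus strand) encodes the partner of p52 in the slower, non-canonical arm. It had 15.5 and 7.29 FPKM at 0 h, 36.3 and 17.1 at 1 h, 74.8 at 2 h, 55.4 at 3 h, and 43.8 and 28.5 at 4 h in 4sU RNA. Total RNA gave 7.73 and 3.78 FPKM at 0 h, 5.70 at 1 h, 26.1 at 2 h, and 15.6 and 12.9 at 4 h, and footprints 18.1 and 9.89 FPKM at 0 h, 12.9 at 0.5 h, 23.96 and 11.2 at 1 h, 73.2 at 2 h, and 48.1 and 40.8 at 4 h. In each kind of library both 4 h values were above both 0 h values, and the 2 h library was the highest. At 1 h replicate 2 was below the 0 h value of replicate 1 in footprints and just above it in 4sU RNA. At 4 h Relb was higher by 1.64 (SE 0.47, adjusted p = 0.0404) in 4sU RNA and by 1.65 (SE 0.42, adjusted p = 0.0364) in footprints, with adjusted p between 0.0440 and 0.181 and between 0.0546 and 0.169 when 1 library was left out. In total RNA the difference of 1.23 (SE 0.32) had an adjusted p of 0.0501 and was called with the block.

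Of the cytoplasmic inhibitors, Nfkbia (ENSMUSG00000021025, chr12:55489410-55492647, minus strand) encodes IkB alpha, whose resynthesis returns NF-kB to the cytoplasm. It was the most abundant of the 10 genes per length in 4sU RNA at 0 h, with 170.0 and 144 FPKM at 0 h, 676 and 413 at 1 h, 716 at 2 h, 622 at 3 h, and 485 and 403 at 4 h. The 1 h libraries were both above the 0 h libraries and differed from each other. In total RNA it had 59.1 and 36.9 FPKM at 0 h, 79.8 at 1 h, 242 at 2 h, and 153 and 124 at 4 h, and in footprints 191 and 129 FPKM at 0 h, 369.7 at 0.5 h, 649.8 and 325 at 1 h, 659.8 at 2 h, and 612 and 509 at 4 h. All footprint libraries after 0 h were above both at 0 h, the 0.5 h library included. From 1 h to 4 h the footprint level of replicate 1 stayed between 612 and 660 FPKM. The change at 4 h was 1.49 (SE 0.37, adjusted p = 0.0272) in 4sU RNA, 1.54 (SE 0.30, adjusted p = 0.0231) in total RNA and 1.82 (SE 0.39, adjusted p = 0.0235) in footprints. With 1 library left out the adjusted p lay between 0.0492 and 0.183, between 0.0344 and 0.150 and between 0.0560 and 0.126. At 1 h the differences were 1.75 (SE 0.37, adjusted p = 0.196) in 4sU RNA and 1.54 (SE 0.39, adjusted p = 0.296) in footprints, with adjusted p of 0.00903 and 0.0257 with the block.

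Nfkbie (ENSMUSG00000023947, chr17:45555703-45563169, plus strand) encodes IkB epsilon, a slower cytoplasmic inhibitor. Its 4sU values were 36.6 and 22.2 FPKM at 0 h, 93.0 and 51.4 at 1 h, 183 at 2 h, 97.1 at 3 h, and 65.5 and 66.5 at 4 h. Total RNA gave 13.0 and 7.67 FPKM at 0 h, 12.4 at 1 h, 61.3 at 2 h, and 23.3 and 21.8 at 4 h, and footprints 25.4 and 15.9 FPKM at 0 h, 15.5 at 0.5 h, 30.6 and 17.5 at 1 h, 119 at 2 h, and 50.7 and 51.1 at 4 h. In footprints the libraries at 0.5 and 1 h lay in or near the range of the 0 h libraries, in contrast to the 4sU libraries at 1 h, which were both above 0 h. The 1 h change of footprints minus that of 4sU RNA was -1.05 (SE 0.52), and this difference was not called (adjusted p = 1.000). At 4 h Nfkbie was higher by 1.18 (SE 0.35, adjusted p = 0.0456) in 4sU RNA, 1.10 (SE 0.28, adjusted p = 0.0488) in total RNA and 1.30 (SE 0.33, adjusted p = 0.0369) in footprints, with adjusted p up to 0.224, 0.230 and 0.153 when 1 library was left out.

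Nfkbid (ENSMUSG00000036931, chr7:30421732-30428746, plus strand) encodes IkBNS, a nuclear IkB protein that binds p50 and adjusts selected target genes. In 4sU RNA it had 54.5 and 46.7 FPKM at 0 h, 792 and 307 at 1 h, 443 at 2 h, 224 at 3 h, and 212 and 124 at 4 h. In replicate 1 it was the one gene of the 10 with its highest 4sU value at 1 h. Both libraries at 1 h were far above both at 0 h, by 14.5-fold in replicate 1 and 6.57-fold in replicate 2. Total RNA gave 17.3 and 10.8 FPKM at 0 h, 41.1 at 1 h, 173 at 2 h, and 79.5 and 37.9 at 4 h, and footprints 10.8 and 7.54 FPKM at 0 h, 31.0 at 0.5 h, 260.2 and 73.7 at 1 h, 353 at 2 h, and 143 and 65.9 at 4 h. Footprints at 1 h stood 24.2-fold and 9.77-fold above 0 h of replicates 1 and 2, and the 2 h library 32.8-fold, the largest ratio of any of the 10 genes. The spread between replicates was wide, with replicate 1 higher in every replicated group. The difference at 1 h was 3.26 (SE 0.50, adjusted p = 0.112) in 4sU RNA and 3.80 (SE 0.65, adjusted p = 0.2004) in footprints, neither called, and with the block the adjusted p was 0.00106 and 0.00347. At 4 h Nfkbid was higher by 1.66 (SE 0.50, adjusted p = 0.0473), 1.93 (SE 0.40, adjusted p = 0.0260) and 3.29 (SE 0.65, adjusted p = 0.0189) in 4sU RNA, total RNA and footprints, with adjusted p up to 0.191, 0.141 and 0.110 when 1 library was left out. Against 1 h, the 4sU level at 4 h differed by -1.60 (SE 0.50, adjusted p = 0.0609), which was called lower with the block (adjusted p = 0.00212).

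Tnfaip3 (ENSMUSG00000019850, chr10:19000910-19015657, minus strand) encodes A20, a ubiquitin-editing enzyme that restrains signalling upstream of the IkB kinase. It had 39.0 and 72.8 FPKM at 0 h, 129 and 181 at 1 h, 159 at 2 h, 114 at 3 h, and 64.1 and 87.1 at 4 h in 4sU RNA. The 1 h libraries were both above the 0 h libraries, while at 4 h replicate 1 lay below the 0 h value of replicate 2. In total RNA it had 12.6 and 17.4 FPKM at 0 h, 31.7 at 1 h, 60.1 at 2 h, and 28.7 and 27.0 at 4 h, and in footprints 19.3 and 22.7 FPKM at 0 h, 41.0 at 0.5 h, 81.8 and 70.3 at 1 h, 179.6 at 2 h, and 82.8 and 77.0 at 4 h. In footprints the replicates were close, with no overlap between 0 h and any later time. The footprint change was 1.81 (SE 0.18, adjusted p = 0.0477) at 1 h, the one call of the family at that time, and 1.88 (SE 0.18, adjusted p = 0.00470) at 4 h. With 1 of the 4 libraries left out the adjusted p at 1 h lay between 0.0982 and 0.433. In 4sU RNA at 4 h the difference of 0.48 (SE 0.36, adjusted p = 0.334) was not called, and the block gave an adjusted p of 0.0437. The footprint change minus the total RNA change at 4 h was 1.02 (SE 0.28), and this was not called (adjusted p = 0.983). Against 1 h, 4sU RNA at 4 h differed by -1.02 (SE 0.36, adjusted p = 0.0817). With the block Tnfaip3 and Nfkbid were called lower, as were 32.2% of all genes, and Nfkb1, Tnip3 and Relb higher, as were 22% of all genes.

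Tnip3 (ENSMUSG00000044162, chr6:65525313-65634040, plus strand) encodes an A20-binding protein of the ABIN family, and it was the one gene of the 10 below its 0 h level at 1 h in both 4sU RNA and footprints of both replicates. Its 4sU values were 1.94 and 3.51 FPKM at 0 h, 0.530 and 1.00 at 1 h, 5.15 at 2 h, 15.7 at 3 h, and 12.3 and 17.0 at 4 h. Both libraries at 1 h were below both at 0 h, by ratios of 0.273 and 0.285 within replicates 1 and 2, and both at 4 h were far above. Footprints gave 5.75 and 8.08 FPKM at 0 h, 0.760 at 0.5 h, 1.03 and 2.50 at 1 h, 25.3 at 2 h, and 36.4 and 59.1 at 4 h. The same order held there, with the lowest value at 0.5 h and ratios to 0 h of 0.179 and 0.309 at 1 h in replicates 1 and 2. In total RNA the gene had 1.17 and 1.42 FPKM at 0 h, 1.06 at 1 h, 2.35 at 2 h, and 8.90 and 9.99 at 4 h, with 1 h and 0 h close and 4 h above both without overlap. The 1 h difference was -1.06 (SE 0.29, adjusted p = 0.244) in 4sU RNA and -1.55 (SE 0.37, adjusted p = 0.282) in footprints. Neither was called, but with the block both were called lower, at adjusted p of 0.00879 and 0.00942. At 4 h Tnip3 was higher by 2.09 (SE 0.29, adjusted p = 0.00503) in 4sU RNA, 2.19 (SE 0.21, adjusted p = 0.00474) in total RNA and 2.60 (SE 0.37, adjusted p = 0.00807) in footprints. Against 1 h the 4sU change at 4 h was 3.15 (SE 0.29, adjusted p = 0.00519) and the footprint change 4.15 (SE 0.37, adjusted p = 0.0116), the largest of the 10 genes in this comparison in both kinds of library. The values at 1 h are near the pseudocount of 1 FPKM, so the log2 changes understate the ratios.

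The 4sU pair with the 0.5 h label covers the earliest transcription, and since each time has a single library its values carry no test. Nfkbid had 229.5 FPKM at 0.5 h, against 59.9 at 0 h. Nfkbia had 799 FPKM at 0.5 h, against 213 at 0 h. Nfkb2 had 118 FPKM at 0.5 h, against 39.4 at 0 h, and Tnfaip3 had 312 at 0.5 h, against 131 at 0 h. These 4 of the 10 genes were at least 2-fold higher on the log2(FPKM + 1) scale, a size reached by 0.694% of all genes, with differences of 1.92, 1.90, 1.55 and 1.24 in that order. Rel, with 8.62 FPKM at 0.5 h and 8.46 at 0 h, and Nfkb1, with 32.8 and 35.1 at these times, differed by 0.02 and -0.09. Tnip3 had 3.21 FPKM at 0.5 h, against 5.08 at 0 h, a difference of -0.53. The level of Tnfaip3 before restimulation was higher with this label (131 FPKM) than with the 1 h label (39.0 and 72.8), and label time and dose differ between them.

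The share of new RNA in the pool before restimulation was described by the ratio of 4sU to total RNA at 0 h, which is higher for RNA that turns over fast. The ratio of Nfkbid was 3.15 in replicate 1 and 4.33 in replicate 2. That of Tnfaip3 was 3.09 and 4.19, that of Nfkbia 2.88 and 3.89, and that of Nfkbie 2.82 and 2.90. The inhibitors and Tnfaip3 thus stood above the subunits, which ran from 1.395 for Nfkb1 to 2.43 for Rela over both replicates, and above the median of all genes, 1.45 and 1.59. In limma 6 of the 10 genes were higher in 4sU than in total RNA at 0 h (Nfkb1, Rela, Nfkbia, Nfkbie, Nfkbid and Tnfaip3), where 40.4% of all genes were, and with the block 10, where 55.2% of all genes were. The difference was 1.78 (SE 0.32, adjusted p = 0.00309) for Tnfaip3, 1.72 (SE 0.33, adjusted p = 0.00378) for Nfkbia and 1.81 (SE 0.51, adjusted p = 0.0193) for Nfkbid, whose adjusted p was up to 0.114 with 1 library left out, against a median of 0.52 over all genes. The count was 3 without replicate 1 of 4sU RNA and 2 without replicate 2 of total RNA, and Nfkbia and Tnfaip3 were called in each fit. Fits with 1 library left out called fewer of all genes too. FPKM in both kinds are scaled to the library total, so the ratio gives an order and not a rate. The limma test is against equal values, so a call does not place a gene above the median of all genes. Nfkb1 was called with its ratio at percentiles 47.3 and 52.4 of all genes in replicates 1 and 2.

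**Figure D3:**
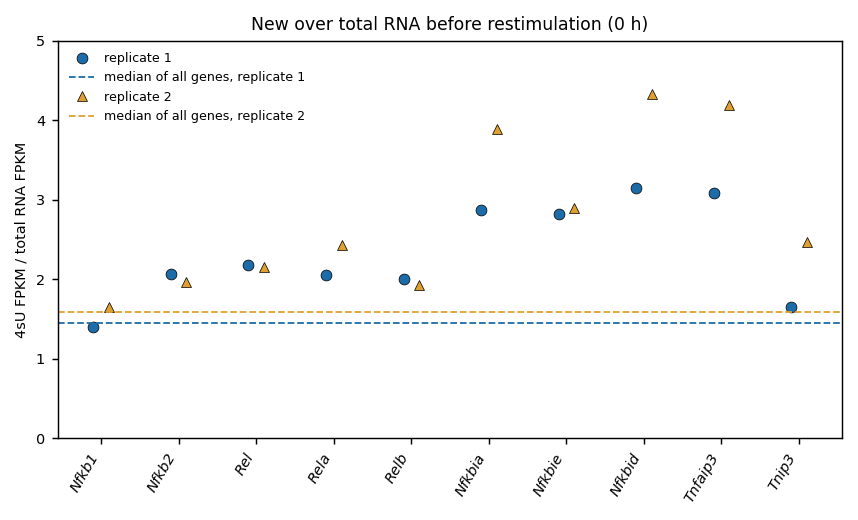
Ratio of 4sU FPKM to total RNA FPKM at 0 h for each gene; circles are replicate 1, triangles replicate 2, and dashed lines the median of all genes in that replicate (1.45 and 1.59). Nfkbia, Nfkbie, Nfkbid and Tnfaip3 lie highest, between 2.82 and 4.33, and Nfkb1 lies nearest to the median of all genes.

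Within footprints, which count ribosomes on the coding sequence, the makeup of the 5 subunits shifted with time. In replicate 1 Rel made up 5.75% of the summed subunit FPKM at 0 h, 5.82% at 0.5 h, 13.2% at 1 h, 22.4% at 2 h and 6.42% at 4 h. In replicate 2 its share was 7.21% at 0 h, 12.5% at 1 h and 8.81% at 4 h. The share of Rel was thus highest in the middle of the course in both replicates. The share of Rela was 30.6% at 0 h, 24.1% at 1 h, 15.2% at 2 h and 9.40% at 4 h in replicate 1, and 29.0% at 0 h, 27.0% at 1 h and 12.1% at 4 h in replicate 2. Rel footprints over Rela footprints were 0.19, 0.55, 1.47 and 0.68 at 0, 1, 2 and 4 h in replicate 1 and 0.25, 0.46 and 0.73 at 0, 1 and 4 h in replicate 2. Nfkb1 kept the largest share throughout, from 32.2% at 2 h to 59.7% at 4 h in replicate 1.

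The footprints of Nfkbia and Nfkbie summed, over those of the 5 subunits summed, gave 0.91 at 0 h, 1.61 at 0.5 h, 2.30 at 1 h, 1.01 at 2 h and 0.92 at 4 h in replicate 1. In replicate 2 the ratio was 0.75 at 0 h, 1.69 at 1 h and 0.93 at 4 h. The sum of Nfkbia and Nfkbie was thus above the subunit sum at 1 h in both replicates. At 4 h the ratio was lower than at 1 h in both. It was 0.92 and 0.93 at 4 h against 0.91 and 0.75 at 0 h in replicates 1 and 2. Nfkbib, another IkB gene, is not in this sum, and limma called its footprints higher at 4 h (1.18, adjusted p = 0.0294). These shares and ratios are descriptions, with no test. The differences between the footprint change and the total RNA change at 4 h, and between 4sU RNA and total RNA at 4 h, and between footprints and 4sU RNA at 1 h, were tested as interactions in limma. They called 0 of the 10 genes and 0% of all genes, and 2, 0 and 1 of the 10 had an unadjusted p below 0.05. Over all genes 275 of 9318, 538 of 9270 and 228 of 9375 had one. With the block 0 of the 10 genes were called as well, while over all genes 0.0322%, 1.87% and 0% were called in these comparisons. Rel had a footprint change minus total RNA change of 0.86 (SE 0.34) at 4 h, Nfkbid one of 1.36 (SE 0.89), and Nfkb2 a footprint change minus 4sU change of -1.47 (SE 0.70) at 1 h.

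**Figure D4:**
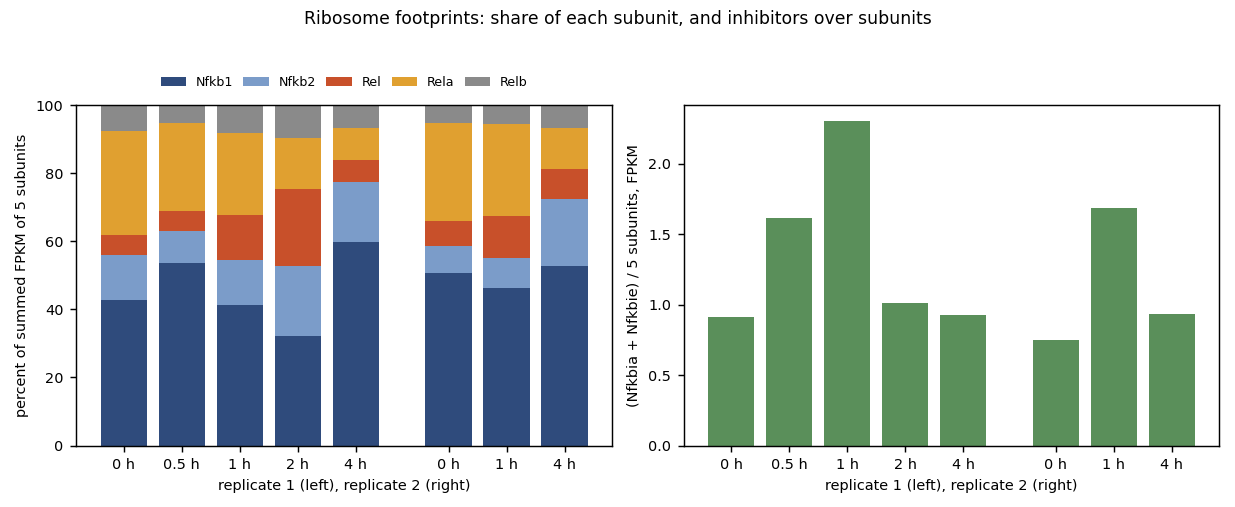
Left, percent of the summed footprint FPKM of the 5 subunits by time and replicate; right, footprint FPKM of Nfkbia and Nfkbie over that of the 5 subunits. The share of Rel is highest at 2 h in replicate 1 (22.4%), and the inhibitor ratio is highest at 1 h in both replicates (2.30 and 1.69).

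Other genes of the pathway were followed in 4 lists, of which 47 of 48 genes are in the table. The lists were chosen with earlier results of these data known, so their counts and medians are not independent evidence. In 4sU RNA at 4 h against 0 h, 13 of 22 NF-kB target genes were higher and 0 lower. The shares called among all genes were 14.4% higher and 18.9% lower. The targets had a median log2 change of 1.81 against -0.16 over all genes. The chemokine genes Ccl4 (6.25, adjusted p = 0.0173) and Ccl3 (6.19, adjusted p = 0.00945) and the cytokine gene Csf2 (5.99, adjusted p = 0.00220) changed most. Of 4 other IkB family genes, 1 was higher, Bcl3, a nuclear IkB protein that partners p50 and p52 (2.41, adjusted p = 0.00220). Of 8 genes of the non-canonical arm, the costimulatory receptor genes Tnfrsf4 (2.51, adjusted p = 0.00627) and Tnfrsf18 (1.95, adjusted p = 0.00431) were higher. Of 13 genes of linear ubiquitin and A20 partners, Tnip2 was higher (1.56, adjusted p = 0.00978) and Cyld (-0.86, adjusted p = 0.00865) and Sharpin (-0.76, adjusted p = 0.0290) lower, with a list median of 0.06. With the block, 18 targets, 3 other IkB genes, 4 non-canonical genes and 4 ubiquitin and A20 partners were higher, and 1, 0, 0 and 3 of them lower. Over all genes the block called 23.3% higher and 35.4% lower. These adjusted p-values are from limma over all genes.

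In footprints at 4 h, 12.1% of all genes were called higher and 12.9% lower. There 12 of 22 target genes were higher, Ccl3 (8.21, adjusted p = 0.00647), Csf2 (8.04, adjusted p = 0.00122) and Ccl4 (7.27, adjusted p = 0.0115) with the largest changes. So were 2 of 4 other IkB genes (Bcl3 and Nfkbib), 2 of 8 non-canonical genes and 4 of 13 ubiquitin and A20 partners, Tnip2, Rnf11 and Traf6 having the largest changes, and 0 genes of these lists were lower. The block called 21.3% of all genes higher and 26.7% lower. Of the lists, the block called 16 targets, 3 other IkB genes, 4 non-canonical genes and 4 ubiquitin and A20 partners higher, and 1, 0, 0 and 2 of them lower. In total RNA at 4 h the shares over all genes were 6.47% higher and 7.02% lower. There 12 of 22 targets, 2 of 4 other IkB genes (Bcl3 and Nfkbiz), 2 of 7 non-canonical genes and 1 of 13 ubiquitin and A20 partners (Tnip2) were higher and 0 lower. The list median of targets in footprints was 1.99, beside -0.10 over all genes. With the block total RNA had 18 targets, 3 other IkB genes, 4 non-canonical genes and 3 ubiquitin and A20 partners higher, and 0, 1, 0 and 1 of them lower. Over all genes the block called 16.6% higher and 23.3% lower. At 1 h in 4sU RNA limma called none of the 47 genes (0.183% of all genes were higher); Nfkbiz, another nuclear IkB gene, had a log2 difference of 2.06 and Ccl4 one of 6.16. With the block 11 of 22 targets, 3 of 4 other IkB genes, 1 of 8 non-canonical genes and 1 of 13 ubiquitin and A20 partners rose at this time. None of the lists had a gene called lower then, and the shares over all genes are the 5.21% and 5.42% given above.

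The replicates differed in some members in the same way at every time. In all 8 replicated groups Nfkb2, Relb, Nfkbia and Nfkbid were higher in replicate 1, by 0.12 to 1.11, 0.23 to 1.05, 0.24 to 1.00 and 0.22 to 1.81 on the log2(FPKM + 1) scale, and Tnip3 was lower in replicate 1, with differences of -0.79 to -0.15 for replicate 1 minus replicate 2. The CD8 marker sums given above were also higher in replicate 1 in each kind of library, and whether they bear on these genes was not tested.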

How the data were processed

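Gene levels were deposited by the authors as FPKM, 1 table of 9420 genes over 24 libraries of 4sU RNA, total RNA and ribosome footprints. The submitters' processing notes name featureCounts, from Subread 1.4.6-p3, and the build GRCm38. The sources used here do not name the aligner, annotation, gene lengths, strand setting or gene filter. Every gene reaches at least 0.97 FPKM in some library of each kind, so the table appears to have been filtered before deposit. Where depth could be inferred, low values step as whole reads. They do so over exon length in total RNA at 0 h in replicate 2, and over coding length in footprints. The length used in the other libraries, every 4sU library among them, was not resolved. Levels are therefore not compared gene by gene between kinds of library, except 4sU with total RNA, which are assumed to share a length. Depth was inferred from those steps where at least 80% of values came out whole within 0.1 read. It is not known for the other libraries. No column lacked a sample.

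R 4.3.3 with limma 3.58.1 compared the groups on log2(FPKM + 1), within each kind of library, with a mean-variance trend, Benjamini-Hochberg adjustment over all genes with a mean of at least 1 FPKM (9278, 9078 and 9312 genes in 4sU RNA, total RNA and footprints) and a threshold of 0.05. Residual degrees of freedom were 3, 2 and 3. A time with 1 library is assumed to vary like the replicated ones, and changes of low genes are understated on this scale. The ratio of 4sU to total RNA and the differences between kinds of library were fitted in joint models. Alternatives were a pseudocount of 0.1, no filter, median-of-ratios scaling, leaving out each library, and the replicate number as a block. Same-numbered libraries deviated together from their group means (correlation above 0.1 in 28 of 28 pairs, 0.307 to 0.79, median 0.599), so the numbers were taken to pair the libraries. This rests on the data, since the labels do not say what a number shares. The fit was tested on simulated data for 4sU RNA at 4 h against 0 h only. The simulated noise was independent between libraries, without an effect shared by replicate number. It therefore does not cover the block, the times with 1 library or the joint models.

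The 10 genes and 4 pathway lists (48 genes; other IkB genes, linear ubiquitin and A20 partners, the non-canonical arm, and targets) were chosen with earlier results of these data known. A further list is not reported here. All 10 genes are named. Of each list up to 3 called genes with the largest changes are named or, where none was called, the gene with the largest difference. Symbols and locations are from GENCODE M21 (9412 of 9420 IDs matched), promoter windows from RefSeq on GRCm38.p6.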

Additional observations from a re-analysis of the deposited data

How the results depend on the processing

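No tested log2 change printed for a single gene of the 10 changed sign under the alternatives. Their median did at 0.5 h in footprints (-0.11 with the block, against 0.01) and, with 1 library left out, at 1 h in total RNA and footprints. With median-of-ratios scaling it was 0.03, against -0.10, for 4sU RNA at 4 h against 1 h. For the 4sU change minus the total RNA change at 4 h it was 0.02, against -0.03. Both also changed sign in some fits with 1 library left out. With the replicate block, which rests on the pairing of libraries by number, the count of genes called was 9 instead of 0 for 4sU RNA at 1 h, 10 instead of 8 at 2 h, 10 instead of 6 at 3 h and 5 instead of 2 at 4 h against 1 h. It was 3 instead of 0 for total RNA at 1 h and 9 instead of 5 at 2 h. In footprints it was 4 instead of 1 at 1 h, 9 instead of 4 at 2 h and 5 instead of 3 at 4 h against 1 h, and for 4sU over total RNA at 0 h it was 10 instead of 6. At 1 h in footprints a pseudocount of 0.1 and median-of-ratios scaling each gave 0. The cause was not tested.

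Leaving out 1 library at a time, the counts ran from 0 to 0 at 2 h and at 3 h, 2 to 4 at 4 h and 2 to 3 at 4 h against 1 h in 4sU RNA, from 0 to 6 at 2 h and 1 to 7 at 4 h in total RNA, from 0 to 1 at 1 h, 0 to 0 at 2 h, 4 to 5 at 4 h and 0 to 1 at 4 h against 1 h in footprints, and from 2 to 5 for 4sU over total RNA. These fits have fewer libraries. They called fewer of all genes too, except for footprints at 1 h without replicate 2 at 1 h. Over all genes, the block raised the number called at 4 h to 5445 from 3089 in 4sU RNA, to 3618 from 1224 in total RNA and to 4474 from 2326 in footprints. Median-of-ratios scaling moved the median of all genes in 4sU RNA at 4 h to -0.01, against -0.16, and the split to 1646 higher and 1372 lower, against 1334 and 1755.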

Other observations

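Over the 24 libraries, with values centred within each kind of library, the genes whose course was most like that of each family member were found among 7797 genes, leaving out the family itself, by Pearson's r, given as a description since libraries share times and controls. Nfkbid was most like the kinase gene Plk3 (0.977) and the cytokine gene Tnf (0.965), and Nfkbia most like Plk3 (0.963) and the chemokine gene Ccl4 (0.962). Nfkb1 was most like the integrin gene Itgav (0.977) and the survival gene Bcl2l1 (0.972). Nfkbie was most like the calcium channel gene Orai1 (0.975), Relb most like the phosphatase gene Ptpn1 (0.957), and Nfkb2 most like the adaptor gene Lcp2 (0.961). Within the family Nfkbie and Relb were closest (0.96), while Tnip3 was nearest to Nfkb1 (0.826) and had 0.09 with Nfkbid.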
